A study of Rattus norvegicus with 45 samples.

Results

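Solute carriers are membrane proteins that move amino acids, sugars, ions, metals, organic anions and vitamins across the plasma membrane or across the membranes of organelles. In brain, different families are known for different cells: glycine transporters clear glycine around glia and neurons, while several carriers of organic anions, sulfate and imino acids are known from the barrier layers at the brain's surface and ventricles. The genes described here are the 42 of 32883 measured genes whose name begins with Slc and a digit in the readable rows of the study's table of differential expression, leaving out the dopamine transporter, the vesicular monoamine transporter and the vesicular inhibitory amino acid transporter genes. The values carry gene identifiers only, and 1998 of them could be named in this way. Those rows are ordered by the study's test of saline H3.3WT vs. saline empty rats, so the naming is not neutral, and differences that involve these 2 saline groups are given below as descriptions with no test. The last solute carrier gene in that order was Slc9a9, an endosomal sodium-proton exchanger, whose mean was 0.14 (SE 0.08) higher in saline H3.3WT than in saline empty rats on the log2 scale. Genes beyond it have no name here and were not analysed as solute carriers.

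RNA was sequenced from ventral tegmental area (VTA) punches of male wild-type Sprague-Dawley rats of 250 to 275 g, after 10 d of heroin or saline self-administration, virus injection into the VTA on day 11 and 30 d of abstinence. The viruses carried green fluorescent protein alone (called empty here), the histone variant H3.3 in its wild-type form (H3.3WT), or H3.3 with alanine in place of the glutamine that can be dopaminylated (H3.3Q5A). The empty vector is thus a control for infection, and H3.3WT for extra H3.3. The promoter that drives the transgene is not given in the sources used here, and a punch holds infected and uninfected cells of every type present. Each library is 1 rat, with 7 saline empty, 7 saline H3.3WT, 7 saline H3.3Q5A, 8 heroin empty, 8 heroin H3.3Q5A and 7 heroin H3.3WT rats. For 1 more library the title and the treatment label name different viruses, and it entered no group. Reads on genes per rat, recovered from the deposited values, ranged from 24308953 to 71104049 with a median of 42574786. All 42 solute carrier genes passed the filter on low values, with a median of 80 reads per rat for Slc22a18 and 14108 for Slc6a9, and no fewer than 24 in any rat. The deposited values are on a log2-like scale, so a difference of 1 is about a doubling, and somewhat more for genes with few reads. None of 10 marker genes of midbrain dopamine neurons could be named, so the tissue label could not be checked against them. In bulk tissue, fewer cells of a type and less RNA per cell cannot be told apart.

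The first comparison asked how expression differed between heroin rats given H3.3Q5A and those given the empty virus. These groups differ in extra H3.3 as well as in the changed glutamine, where the study says that H3.3Q5A blocks all modifications. In heroin H3.3Q5A vs. heroin empty rats, 7 solute carrier genes rose and 1 fell. The genes that rose were Slc6a20, an imino acid transporter, Slc13a4, a sodium-sulfate cotransporter, Slc13a3, a dicarboxylate transporter, Slc22a8, an organic anion transporter, Slc22a18, a member of the organic ion carriers, Slc24a1, a sodium-calcium-potassium exchanger first known from rod photoreceptors, and Slc41a1, a magnesium transporter. The gene that fell was Slc2a6, a member of the glucose transporter family. Of the 42 genes, 19% were called, which here means that limma gave a p of less than 0.05 after Benjamini-Hochberg adjustment over all genes and that the log2 fold change was larger than 0.2 in size. Of all 22570 genes tested, 4.24% were called, with 2.99% higher and 1.25% lower, and of the 1998 named genes 5.56%, with 4.75% higher and 0.801% lower. The median log2 fold change was -0.01 over the solute carrier genes and 0.01 over all genes. 20 of the 42 differences were positive. The fit used the 30 rats of the 4 groups that the naming did not use. By role, 4 of 7 carriers of carboxylates, sulfate, iodide and organic ions rose, as did 1 of 4 amino acid and neurotransmitter carriers, 1 of 7 ion and proton exchangers and 1 of 7 metal and heme carriers, while 1 of 6 sugar carriers fell. None of 4 nucleotide sugar carriers, 3 mitochondrial carriers and 3 folate, nucleoside and fatty acid carriers was called.

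The start regions of the 4 carriers of carboxylates, sulfate and organic ions that rose are shown because these genes moved together, followed by those of 2 genes that fell against heroin H3.3WT rats. The sequences are from RefSeq (GRCr8), 250 bases before to 50 after the annotated start, 5′ to 3′ along the gene. They were available for 32 of the 42 genes, and not for Slc6a20 or Slc41a1. Capitals mark matches on either strand to the GC box (GGGCGG), to the CCAAT box, which is named by its own letters, and to the E-box motif (CACGTG). Slc13a4 lies at chr4:64955937-64956236, minus strand, Slc13a3 at chr3:174623844-174624143, minus strand, Slc22a8 at chr1:214927034-214927333, plus strand, Slc22a18 at chr1:208100923-208101222, plus strand, Slc45a3 at chr13:45959217-45959516, plus strand and Slc6a9 at chr5:136659826-136660125, plus strand.
Slc13a4 promoter: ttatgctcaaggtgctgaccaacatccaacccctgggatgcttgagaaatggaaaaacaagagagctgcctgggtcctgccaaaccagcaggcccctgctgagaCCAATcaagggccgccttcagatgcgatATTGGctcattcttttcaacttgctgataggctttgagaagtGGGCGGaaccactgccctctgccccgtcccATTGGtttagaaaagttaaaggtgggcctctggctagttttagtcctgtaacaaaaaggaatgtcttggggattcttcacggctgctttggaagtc
Slc13a3 promoter: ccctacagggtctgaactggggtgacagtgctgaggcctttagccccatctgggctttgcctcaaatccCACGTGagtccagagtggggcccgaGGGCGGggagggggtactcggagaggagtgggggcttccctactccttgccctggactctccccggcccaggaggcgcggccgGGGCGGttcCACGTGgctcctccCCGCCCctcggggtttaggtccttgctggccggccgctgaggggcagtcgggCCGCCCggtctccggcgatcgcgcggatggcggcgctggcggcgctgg
Slc22a8 promoter: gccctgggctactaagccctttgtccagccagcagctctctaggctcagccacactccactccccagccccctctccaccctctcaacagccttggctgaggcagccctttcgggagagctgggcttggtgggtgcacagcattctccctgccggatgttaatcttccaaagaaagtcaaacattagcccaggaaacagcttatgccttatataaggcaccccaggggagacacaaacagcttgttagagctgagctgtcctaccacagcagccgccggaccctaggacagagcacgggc
Slc22a18 promoter: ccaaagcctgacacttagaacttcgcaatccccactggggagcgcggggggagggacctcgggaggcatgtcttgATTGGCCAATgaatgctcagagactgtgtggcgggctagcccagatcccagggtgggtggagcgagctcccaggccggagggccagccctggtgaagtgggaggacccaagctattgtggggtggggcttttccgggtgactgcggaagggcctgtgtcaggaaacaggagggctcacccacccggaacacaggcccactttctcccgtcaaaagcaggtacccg
Slc45a3 promoter: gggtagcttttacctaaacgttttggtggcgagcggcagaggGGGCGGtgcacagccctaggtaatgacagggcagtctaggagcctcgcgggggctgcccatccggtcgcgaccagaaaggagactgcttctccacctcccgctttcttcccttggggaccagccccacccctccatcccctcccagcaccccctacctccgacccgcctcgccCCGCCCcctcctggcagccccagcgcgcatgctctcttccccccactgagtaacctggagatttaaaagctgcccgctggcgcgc
Slc6a9 promoter: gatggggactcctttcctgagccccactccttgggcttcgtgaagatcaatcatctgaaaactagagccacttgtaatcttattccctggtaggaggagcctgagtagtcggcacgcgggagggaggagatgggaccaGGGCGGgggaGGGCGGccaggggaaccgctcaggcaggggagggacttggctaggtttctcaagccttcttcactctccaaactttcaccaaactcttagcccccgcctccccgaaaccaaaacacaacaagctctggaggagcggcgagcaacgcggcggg

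The 4 genes that rose together did not share a promoter layout. The Slc13a4 window held 1 GC box and 3 CCAAT boxes at 50.7% GC. The Slc13a3 window held 4 GC boxes and 2 E-boxes at 71.7% GC, the Slc22a18 window held 2 CCAAT boxes, and the Slc22a8 window held none of the motifs searched. The windows of Slc45a3 and Slc6a9, which fell against heroin H3.3WT rats, held 2 GC boxes each. The window of Slc2a6, which fell against heroin empty rats and is not shown, held 3 GC boxes and 2 CCAAT boxes. Across the family, GC boxes were in 20 of 32 windows against 33.1% of all 33469 rat promoters, CCAAT boxes in 9 against 37.5%, E-boxes in 3 against 6.42%, and a TATA box (TATAAA) in 1 against 14.2%. A forkhead motif (GTAAACA) was in 0 of 32 windows against 3.78% of all promoters, and an AP-1 motif (TGACTCA) in 1 against 4.63%. The median GC content was 61.3% over 33 matched solute carrier genes, where the motif counts are over 32, beside 51.7% for all promoters. The motif shares were not adjusted for this. The background is all annotated promoters and not those of the named genes. These matches describe letters in a window and no site of binding.

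Slc6a20 (rn6 chr8:132665926-132753292, minus strand) takes up proline and related imino acids and is known from kidney, gut and the coverings of the brain. Its deposited values ran from 9.44 to 11.67 (median 10.88) in the 8 heroin H3.3Q5A rats and from 8.25 to 10.51 (median 9.10) in the 8 heroin empty rats. All 8 heroin H3.3Q5A rats were above the heroin empty mean, although the ranges overlapped. The difference was 1.45 (SE 0.30, adjusted p = 0.010, limma), about 2.74-fold, on 209 to 3799 reads per rat. It was called without any single rat, with adjusted p up to 0.036 when heroin H3.3Q5A rat 25 was left out.

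Slc13a4 (rn6 chr4:62797676-62840357, minus strand) brings sulfate into cells with sodium. In heroin H3.3Q5A rats its values ran from 8.46 to 12.06 (median 11.08), against 8.36 to 10.30 (median 9.07) in heroin empty rats. 7 of 8 heroin H3.3Q5A rats were above the heroin empty mean, and heroin H3.3Q5A rat 21, at 8.46, lay near the lowest heroin empty rat. The difference was 1.59 (SE 0.40, adjusted p = 0.023), the largest of the family in size and in error. The call was lost without heroin H3.3Q5A rat 25 or 26 or heroin empty rat 14, with adjusted p up to 0.069.

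Slc22a8 (rn6 chr1:224800251-224818482, plus strand) exports organic anions, drugs among them, at the blood-brain and blood-cerebrospinal fluid barriers. Its values ran from 9.45 to 11.27 (median 10.50) in heroin H3.3Q5A and from 9.13 to 9.91 (median 9.69) in heroin empty rats. The highest heroin empty rat was thus below the median of the heroin H3.3Q5A rats, of which 6 of 8 were above the heroin empty mean. The difference was 0.82 (SE 0.20, adjusted p = 0.021), and the call was lost without heroin H3.3Q5A rat 25 or 26, with adjusted p up to 0.065. RefSeq places the related Slc22a25 across this gene, and reads of the pair could be uncertain.

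Slc13a3 (rn6 chr3:162084314-162147393, minus strand) carries succinate and other dicarboxylates with sodium and is known from kidney and astrocytes. Its values ran from 10.80 to 12.62 (median 11.76) in heroin H3.3Q5A and from 10.20 to 11.38 (median 10.94) in heroin empty rats. The difference was 0.74 (SE 0.21, adjusted p = 0.038), with 6 of 8 rats above the heroin empty mean. It was lost in 9 of 16 fits that left out 1 rat, without heroin empty rat 2, 6, 14 or 16 or heroin H3.3Q5A rat 25, 26, 37, 39 or 43, with adjusted p up to 0.107. Elmo2 overlaps it in RefSeq.

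Slc22a18 (rn6 chr1:216677372-216700641, plus strand), an organic ion carrier of an imprinted region, had the fewest reads of the family, from 24 to 214 per rat. Its values ran from 7.25 to 7.93 (median 7.55) in heroin H3.3Q5A and from 6.96 to 7.58 (median 7.15) in heroin empty rats. The difference was 0.40 (SE 0.10, adjusted p = 0.022), and all 8 heroin H3.3Q5A rats were above the heroin empty mean. The call was lost without heroin H3.3Q5A rat 25 or 26, with adjusted p up to 0.069. In the same role, Slc22a23, an orphan member of the family, gave -0.21 (adjusted p = 0.115), Slc16a13, of the monocarboxylate carriers, gave 0.10, and Slc5a5, the iodide transporter of thyroid, gave 0.09, none of which was called.

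Slc24a1 (rn6 chr8:70408527-70436028, minus strand) exchanges sodium for calcium and potassium. Its values ran from 7.64 to 9.37 (median 8.84) in heroin H3.3Q5A and from 7.36 to 8.42 (median 7.74) in heroin empty rats. In the plot of the called genes by rat, 6 heroin H3.3Q5A rats sit above every heroin empty rat and 2 lie among them. The difference was 0.87 (SE 0.20, adjusted p = 0.016), on 54 to 704 reads per rat, and the call was lost without heroin H3.3Q5A rat 25 (adjusted p = 0.053).

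Of the other exchangers, Slc12a4, a potassium-chloride cotransporter, ran from 10.67 to 11.15 (median 11.05) in heroin H3.3Q5A and from 10.54 to 11.14 (median 10.74) in heroin empty rats, a difference of 0.22 (SE 0.08, adjusted p = 0.117). The sodium-proton exchangers Slc9a9 and Slc9b2 gave -0.13 and 0.04, and the anion exchanger Slc4a2 gave -0.12. None of these 4 was called.

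Slc41a1 (rn6 chr13:48607307-48627999, plus strand) moves magnesium out of cells. Its values ran from 12.32 to 13.12 (median 12.70) in heroin H3.3Q5A and from 12.13 to 12.55 (median 12.41) in heroin empty rats. The difference of 0.29 (SE 0.08, adjusted p = 0.035) was seen in 7 of 8 rats and was lost in 8 of 16 fits that left out 1 rat, without heroin empty rat 6, 14 or 16 or heroin H3.3Q5A rat 25, 26, 37, 39 or 43 (adjusted p up to 0.101). Slc30a9, a zinc carrier, ran from 12.65 to 12.96 (median 12.83) against 12.89 to 13.06 (median 12.99) in heroin empty rats. All 8 rats were below the heroin empty mean, with a difference of -0.17 (SE 0.04, adjusted p = 0.023) that lies within the fold threshold and was not called. The zinc carriers Slc30a5, Slc39a3 and Slc39a7 gave 0.02, -0.06 and 0.06, the magnesium carrier Slc41a3 gave 0.06 and the heme transporter Slc48a1 gave -0.15, none of them called.

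**Figure D1:**
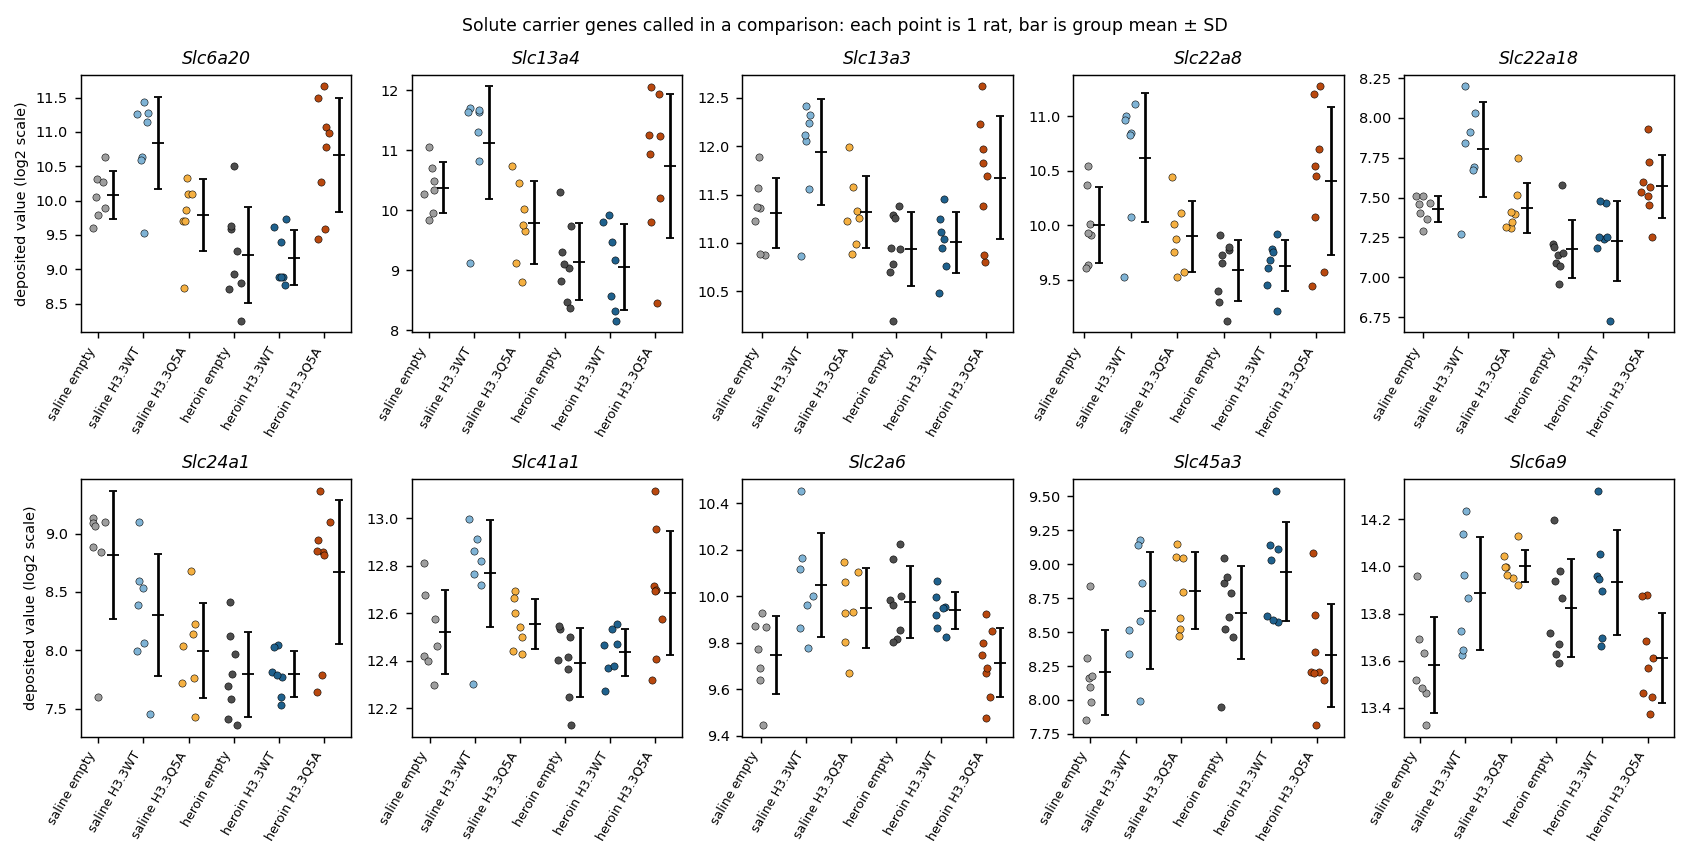
Deposited values on the log2 scale (y axis, a separate range in each panel) of the 10 solute carrier genes called in a comparison, for each rat of the 6 groups (x axis). Each point is 1 rat and bars give the group mean ± SD. In heroin H3.3Q5A rats most points for Slc6a20, Slc13a4, Slc22a8 and Slc24a1 lie above those of the other heroin groups, with 1 or more rats among them, and for Slc24a1 6 of 8 rats lie above every heroin empty rat.

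Slc2a6 (rn6 chr3:5568320-5575136, minus strand), a glucose transporter family member of lysosomal membranes, was the sugar carrier that fell. Its values ran from 9.48 to 9.92 (median 9.72) in heroin H3.3Q5A and from 9.80 to 10.23 (median 9.97) in heroin empty rats. All 8 heroin H3.3Q5A rats were below the heroin empty mean, and the difference was -0.26 (SE 0.07, adjusted p = 0.032). The call was lost in 7 of 16 fits that left out 1 rat, without heroin empty rat 6, 7, 13 or 14 or heroin H3.3Q5A rat 25, 26 or 39 (adjusted p up to 0.093). Cacfd1 overlaps the gene in RefSeq. Slc37a1, a glucose-6-phosphate carrier, ran from 8.51 to 8.96 (median 8.86) against 8.32 to 8.78 (median 8.63) and gave 0.20 (SE 0.09, adjusted p = 0.214), with Rsph1 overlapping it. The other sugar carriers, Slc2a8, Slc45a1, Slc45a3 and Slc45a4, gave -0.004, -0.14, -0.31 and -0.17 and were not called.

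The other genes in this comparison were not called. Slc3a1, the heavy subunit of a cystine and dibasic amino acid transporter, ran from 12.51 to 12.73 (median 12.59) in heroin H3.3Q5A and from 12.56 to about 13 (median 12.69) in heroin empty rats, a difference of -0.15 (SE 0.06, adjusted p = 0.134). Prepl overlaps it. Slc17a8, a vesicular glutamate transporter, gave 0.04 (adjusted p = 0.923) on a median of 135 reads. The folate carrier Slc19a1 ran from 9.09 to 9.75 (median 9.44) against 8.83 to 9.53 (median 9.29) and gave 0.16 (adjusted p = 0.311). The fatty acid carrier Slc27a1 ran from 12.31 to 12.62 (median 12.47) against 12.05 to 12.61 (median 12.29) and gave 0.14 (adjusted p = 0.275), and the nucleoside carrier Slc29a3 gave -0.16. All 8 heroin H3.3Q5A rats were below the heroin empty mean for Slc3a1, and the groups overlapped for each of these genes.

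Mitochondrial carriers and carriers of nucleotide sugars differed by at most 0.12 in size. Slc25a16, a mitochondrial carrier, ran from 10.97 to 11.17 (median 11.11) against 11.02 to 11.31 (median 11.19), a difference of -0.08 (adjusted p = 0.251). Slc25a36, a pyrimidine nucleotide carrier, ran from 9.75 to 10.04 (median 9.89) against 9.70 to 9.99 (median 9.85), a difference of 0.06 (adjusted p = 0.567). Slc25a34 gave -0.01. Slc35d2, a nucleotide sugar carrier, ran from 8.02 to 8.97 (median 8.36) against 7.91 to 8.91 (median 8.64), a difference of -0.12 (adjusted p = 0.666). Slc35e4 ran from 10.72 to 10.93 (median 10.86) against 10.69 to 11.18 (median 10.84), a difference of -0.02 (adjusted p = 0.917), with Dusp18 overlapping it. Slc35c2 gave 0.00 and Slc35f6 gave -0.01. Slc4a1ap, an adaptor named for the anion exchanger it binds and no carrier itself, ran from 11.07 to 11.27 (median 11.22) against 11.12 to 11.47 (median 11.35) and gave -0.14 (SE 0.05, adjusted p = 0.098), with all 8 heroin H3.3Q5A rats below the heroin empty mean.

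The ranges of heroin H3.3Q5A and heroin empty rats overlapped for all 8 called genes, and the count of 8 rested on few rats. It was 1 without heroin H3.3Q5A rat 25, 2 without heroin H3.3Q5A rat 26, 4 without heroin empty rat 14, and 5 without heroin empty rat 6 or heroin H3.3Q5A rat 39. It was 0 when only the 2 groups compared were fitted and 5 with no gene filter, and with median centring 6 rose and 6 fell. Beside the count of 8, 957 of all genes were called. Without heroin H3.3Q5A rat 25 or 26 or heroin empty rat 14, 210, 381 and 357 of all genes were called. With only the 2 groups compared 101 were called, with no gene filter 526, and with median centring 2375, where the median over all genes was -0.075.

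The heroin H3.3WT rats served as a second control, for extra H3.3, and shared the heroin H3.3Q5A rats with the comparison above. In heroin H3.3Q5A vs. heroin H3.3WT rats, Slc6a20, Slc13a4, Slc22a8 and Slc24a1 rose, and Slc45a3, a sugar carrier known from oligodendrocytes and prostate, and Slc6a9, the glycine transporter of glia, fell. That is 14.3% of the 42 genes, beside 2.88% of all genes tested (2.07% higher and 0.806% lower) and 5.16% of the named genes (3% higher and 2.15% lower). The median log2 fold change was -0.04 over the solute carrier genes and 0.00 over all genes. The differences were 1.497 (SE 0.31, adjusted p = 0.012) for Slc6a20, 1.68 (SE 0.41, adjusted p = 0.027) for Slc13a4, 0.78 (SE 0.21, adjusted p = 0.035) for Slc22a8 and 0.87 (SE 0.21, adjusted p = 0.025) for Slc24a1. In heroin H3.3WT rats Slc6a20 ran from 8.78 to 9.73 (median 8.89), Slc13a4 from 8.16 to 9.92 (median 9.17), Slc22a8 from 9.22 to 9.92 (median 9.68) and Slc24a1 from 7.53 to 8.05 (median 7.79). Each range overlapped that of the heroin H3.3Q5A rats at its lower end only. In fits that left out 1 rat, Slc22a8 lost its call in 9 of 15 (adjusted p up to 0.105). Slc13a4 and Slc24a1 lost theirs in 5 of 15 each (up to 0.079 and 0.076), and Slc6a20 in 0 of 15 (up to 0.042).

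Slc45a3 (rn6 chr13:48745859-48766283, plus strand) ran from 7.82 to 9.08 (median 8.21) in heroin H3.3Q5A and from 8.57 to 9.54 (median 9.03) in heroin H3.3WT rats. 7 of 8 heroin H3.3Q5A rats were below the heroin H3.3WT mean, and the difference was -0.61 (SE 0.17, adjusted p = 0.042). Slc6a9 (rn6 chr5:136669673-136703697, plus strand), which clears glycine and has the most reads of the family, ran from 13.38 to 13.88 (median 13.59) against 13.66 to 14.32 (median 13.95). All 8 rats were below the heroin H3.3WT mean, with a difference of -0.32 (SE 0.09, adjusted p = 0.048). Against heroin empty rats the same genes gave -0.31 (adjusted p = 0.279) and -0.21 (adjusted p = 0.160) and were not called. Both calls against H3.3WT were lost in most fits that left out 1 rat, 10 of 15 for Slc45a3 (adjusted p up to 0.133) and 11 of 15 for Slc6a9 (up to 0.148), each most without heroin H3.3WT rat 11. Ccdc24 overlaps Slc6a9 in RefSeq.

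Slc22a18, Slc13a3, Slc41a1 and Slc2a6 gave 0.34 (adjusted p = 0.056), 0.67 (adjusted p = 0.080), 0.25 (adjusted p = 0.091) and -0.22 (adjusted p = 0.080) against heroin H3.3WT rats and were not called. The count of 6 was 1 without heroin H3.3WT rat 11 or 38 or heroin H3.3Q5A rat 25, 26 or 37, 3 without heroin H3.3WT rat 51 or heroin H3.3Q5A rat 39 or 43, and 13 without heroin H3.3Q5A rat 21. It was 0 when only the 2 groups compared were fitted, where no gene of the whole table was called, and 1 with no gene filter, where Slc6a20 was left. Beside the count of 6, 649 of all genes were called, and 209 with no gene filter. In the fits that left 1 solute carrier gene by leaving out a rat, 107 to 221 of all genes were called. Without heroin H3.3Q5A rat 21, 1632 were called.

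**Figure D2:**
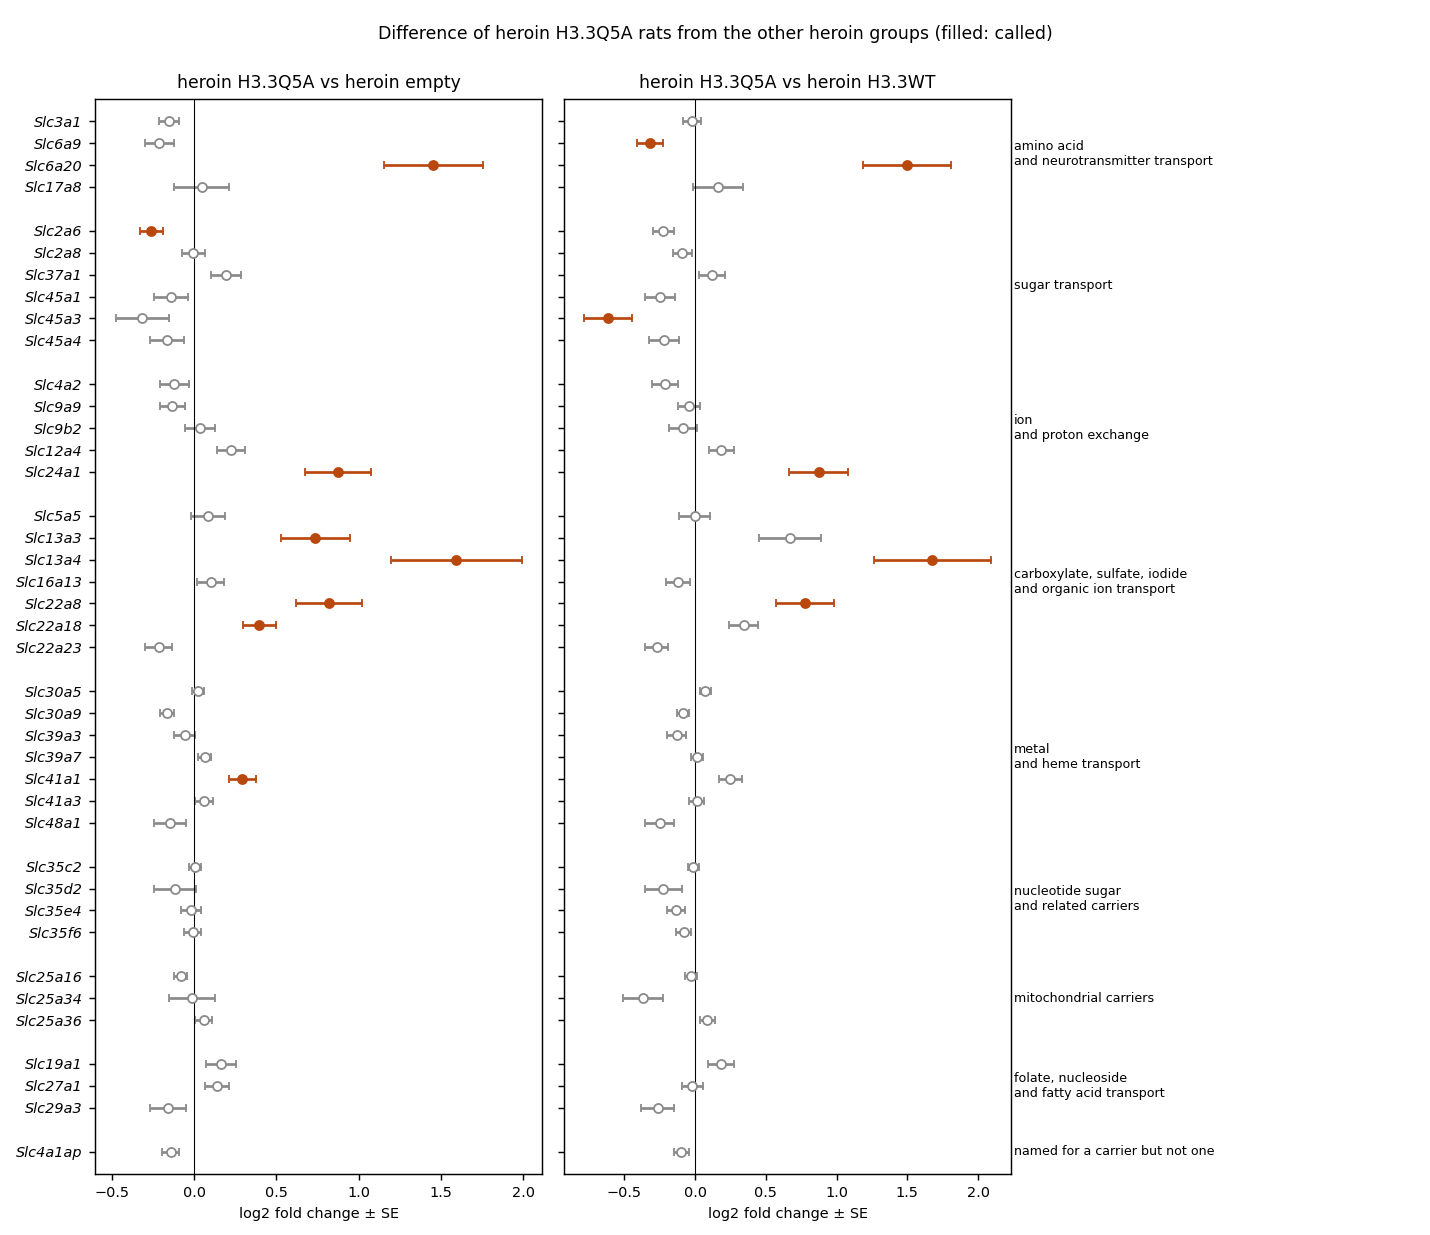
Log2 fold change ± SE (x axis) of 40 of the 42 solute carrier genes, grouped by transport role (y axis), in heroin H3.3Q5A vs. heroin empty rats (left) and vs. heroin H3.3WT rats (right). Filled points were called, 8 on the left and 6 on the right, and the others lie between -0.31 and 0.22 on the left and between -0.37 and 0.67 on the right, where 13 of 36 are beyond 0.2 in size against 4 of 34 on the left.

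The comparison of heroin H3.3WT with heroin empty rats asked what extra H3.3 did by itself. No solute carrier gene was called by limma, and 0 of all 22570 genes, which is 0% of the background. At an unadjusted p under 0.05 there were 4 of 42 solute carrier genes (9.52%), 217 of the 1998 named genes (10.9%) and 1417 of all genes (6.28%). Voom on recovered reads called 0 as well. Fold changes lay between -0.13 for Slc3a1 and 0.36 for Slc25a34, a mitochondrial carrier of unknown cargo, and 29 of 42 were positive, which is 69%, with a median of 0.06. Of the named genes 55.7% were positive (median 0.02), and of all genes tested 51.3% (median 0.003). For the genes that rose with H3.3Q5A, heroin H3.3WT vs. heroin empty rats gave -0.04 for Slc6a20, -0.08 for Slc13a4, 0.04 for Slc22a8 and 0.00 for Slc24a1.

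Heroin vs. saline was tested within H3.3Q5A rats. No solute carrier gene was called by limma, beside 0.253% of all genes tested (0.102% higher and 0.151% lower) and 0.551% of the named genes (0.15% higher and 0.4% lower). At an unadjusted p under 0.05 there were 20 of 42 (47.6%), against 760 of the 1998 named genes (38%) and 4626 of 22570 genes (20.5%). Voom on recovered reads called 1. The lowest adjusted p, 0.05005, was that of Slc6a9, which lay at 13.92 to 14.13 (median 13.996) in saline H3.3Q5A rats. These 7 values were above all 8 of the heroin H3.3Q5A rats, and the difference was -0.39 (SE 0.09). The groups did not overlap for 1 of 42 solute carrier genes here, Slc6a9, beside 0.421% of all genes tested. Slc24a1 gave 0.67 (adjusted p = 0.075), Slc2a6 -0.24 (adjusted p = 0.074), Slc22a23 -0.33 (adjusted p = 0.055) and Slc25a34 -0.45 (adjusted p = 0.077). Slc6a20 gave 0.88 (adjusted p = 0.106), Slc13a4 0.94 (adjusted p = 0.187) and Slc45a3 -0.48 (adjusted p = 0.106). In saline H3.3Q5A rats Slc6a20 ran from 8.72 to 10.32 (median 9.86), Slc13a4 from 8.79 to 10.74 (median 9.75) and Slc45a3 from 8.47 to 9.15 (median 8.79), all overlapping the heroin rats. The count of 0 was 13 without heroin H3.3Q5A rat 21 and 3 without heroin H3.3Q5A rat 40, and 10 with median centring, all lower in heroin. Beside the count of 0, 57 of all genes were called, and 1659, 516 and 1082 in these 3 fits.

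The saline rats that the naming used are described without a test. Saline H3.3WT rats were higher than saline empty rats in 32 of 42 solute carrier genes, with a median difference of 0.24, beside 0.18 over the named genes, which were ordered by this contrast, and 0.00 over all genes. Slc6a20 ran from 9.53 to 11.44 (median 11.14) in saline H3.3WT and from 9.61 to 10.63 (median 10.06) in saline empty rats. Slc13a4 ran from 9.12 to 11.71 (median 11.63) against 9.83 to 11.05 (median 10.34). Slc24a1 ran from 7.46 to 9.10 (median 8.39) against 7.604 to 9.14 (median 9.07). Saline H3.3WT rat 27 was the lowest of its group for Slc6a20, Slc13a4, Slc13a3, Slc22a8, Slc22a18 and Slc41a1, among others, and the groups overlapped in all 42 genes, while 0.093% of all genes tested had groups that did not.

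The sulfate, imino acid, organic anion and dicarboxylate carriers had lower means in heroin than in saline rats with either control virus. Heroin minus saline was -2.07 (SE 0.45) for Slc13a4, -1.67 (SE 0.29) for Slc6a20, -0.99 (SE 0.24) for Slc22a8 and -0.93 (SE 0.24) for Slc13a3 in H3.3WT rats. In empty rats the same differences were -1.24 (SE 0.28), -0.87 (SE 0.28), -0.42 (SE 0.16) and -0.37 (SE 0.19). For Slc24a1 it was -0.51 (SE 0.21) in H3.3WT and -1.02 (SE 0.24) in empty rats. Slc45a3 gave 0.28 (SE 0.21) and 0.44 (SE 0.17), and Slc6a9 gave 0.05 (SE 0.12) and 0.24 (SE 0.11). Over the family, 17 of 42 genes were higher in heroin in H3.3WT rats (median -0.03) and 24 of 42 in empty rats (median 0.02). Saline H3.3Q5A minus saline empty was positive in 28 of 42, which is 66.7% (median 0.09), beside 54.3% of the named genes (median 0.05) and 46% of all genes tested (median -0.01). The groups did not overlap for Slc22a23 (0.42, SE 0.06) and Slc45a4 (0.42, SE 0.09), a sugar carrier, which is 2 of 42 beside 1.24% of all genes tested. Saline empty rats are among those that the naming used.

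**Figure D3:**
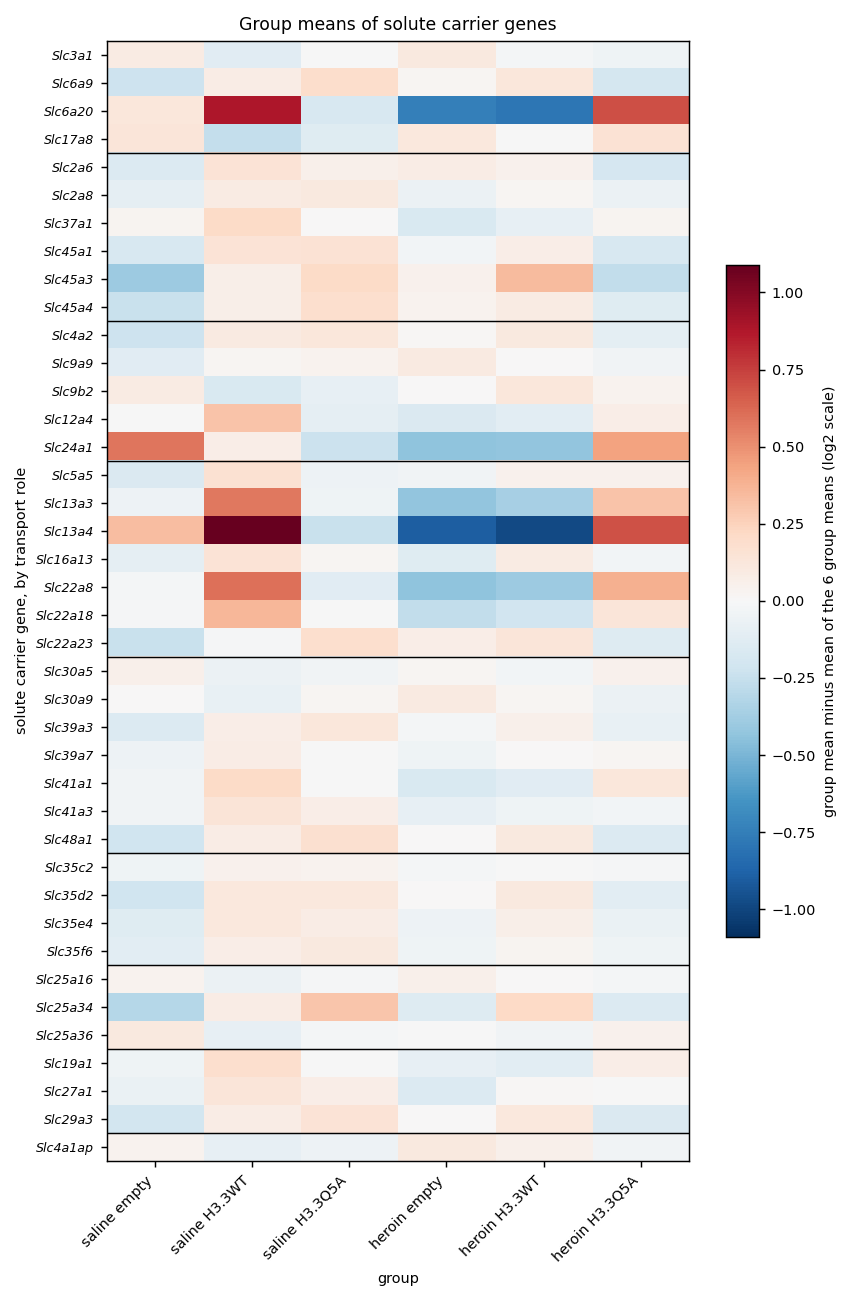
Mean of each of 40 of the 42 solute carrier genes (rows, by transport role) in each of the 6 groups (columns), as the difference from the mean of the 6 group means on the log2 scale (colour). Slc6a20, Slc13a4, Slc22a8 and Slc13a3 are highest in saline H3.3WT and heroin H3.3Q5A rats and lowest in the other heroin groups, whereas Slc45a3 and Slc6a9 are low in saline empty and heroin H3.3Q5A rats.

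Markers of other cell types moved between the same groups. Of 14 listed markers of meningeal fibroblasts, 8 had a name here. Each of the 8 was higher in heroin H3.3Q5A than in heroin empty rats, with a median of 0.86 and 5 called (Fbln1, Foxc1, Foxc2, Foxd1 and Mgp), while against heroin H3.3WT rats 7 were higher, with a median of 0.94 and 6 called. Their summed level was 120 to 691 (median 278) RPM, reads scaled to a common library total, in heroin H3.3Q5A, 86.3 to 291 (median 126) in heroin empty, 75.1 to 183 (median 116) in heroin H3.3WT, 99.7 to 225 (median 164) in saline H3.3Q5A, 141 to 307 (median 206) in saline empty and 124 to 490 (median 401) in saline H3.3WT rats. None was at 0 reads in any rat, and Col1a2, Col3a1, Dcn, Lum, Crabp2 and Aldh1a2 could not be named. Of 20 listed myelin markers, 17 could be named, and 0 of them were higher in heroin H3.3Q5A than in heroin empty rats (median -0.38) or heroin H3.3WT rats (median -0.55, with 5 called lower). Their summed level was 12500 to 29100 (median 17800) RPM in heroin H3.3Q5A, 16000 to 32700 (median 25800) in heroin empty, 20800 to 38800 (median 26400) in heroin H3.3WT and 23000 to 33100 (median 28400) in saline H3.3Q5A rats. It was 14400 to 30900 (median 17800) in saline empty and 13700 to 32300 (median 23100) in saline H3.3WT rats, so a low myelin level was not particular to heroin H3.3Q5A rats. Of 17 markers of endothelial and mural cells 14 could be named, with 2 called higher against heroin empty and 1 against heroin H3.3WT rats, at 342 to 679 (median 480) RPM in heroin H3.3Q5A and 301 to 526 (median 360) in heroin empty rats. Of 14 neuron markers 10 could be named, with 1 and 2 called lower. Of the astrocyte list, 10 of 14 could be named and 1 was called higher against heroin empty rats, and of the microglia list 5 of 10, with 1 called higher. None of the 5 named choroid plexus and ependyma genes, 6 blood genes and 4 pituitary genes was called in either comparison, with medians against heroin empty rats of 0.32, 0.48 and 0.50. In heroin vs. saline H3.3Q5A rats the median was 0.51 for the meningeal and -0.56 for the myelin list, with none called. The part of these cell types in the solute carrier results was not tested.

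From rat to rat within groups, the carriers that rose followed the meningeal list. The 44 rats used here include the saline empty and saline H3.3WT rats whose values ordered the named genes. For the 30 other rats only the number of relations is given, below, and no single-gene value. The single-gene p-values here and in the next paragraph are thus not free of the naming, and describe these 44 rats. After subtracting group means, over 44 rats, Pearson r with the mean of the 8 meningeal genes was 0.91 for Slc13a3, 0.90 for Slc22a8, 0.89 for Slc13a4, 0.88 for Slc6a20, 0.86 for Slc41a1 and 0.76 for Slc22a18. Spearman rho was 0.88, 0.87, 0.87, 0.83, 0.79 and 0.73 for the same genes, and each adjusted permutation p was 5.91e-05 for r and 7.87e-05 for rho, from the smallest p of 1e-05 that 100000 shuffles can give. Without the 2 rats farthest from the median of the list, r was 0.88, 0.87, 0.86, 0.87, 0.80 and 0.73. Slc12a4 (r = 0.77, rho 0.76) and Slc19a1 (r = 0.76, rho 0.72), which were not called, followed it as well with the same adjusted permutation p. The same 6 genes had r between 0.69 (Slc13a4) and 0.86 (Slc13a3) with the endothelial and mural list. Of the genes that rose, Slc24a1 did not, with r = 0.12 (rho 0.06, adjusted permutation p = 0.547).

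Slc24a1 instead ran against myelin markers, with r = -0.85 (rho -0.83, adjusted permutation p = 5.91e-05, r = -0.81 without 2 rats), and with the ependymal cilia genes of the choroid plexus and ependyma list, with r = 0.76 (rho 0.77, adjusted permutation p = 5.91e-05). The 5 named genes of that list were Ccdc39, Tekt1, Rsph1, Cfap74 and Drc1, and none marks the choroid plexus epithelium itself. The genes that fell followed myelin: r was 0.89 for Slc45a3 (rho 0.83), 0.89 for Slc6a9 (rho 0.86) and 0.61 for Slc2a6 (rho 0.59), each with an adjusted permutation p of 5.91e-05. Slc22a23 (r = 0.91, rho 0.84) and the heme transporter Slc48a1 (r = 0.91, rho 0.88) had the highest r with myelin of the family. Slc6a9 was also at r = 0.90 (rho 0.90) with the astrocyte list. Of 378 relations of 42 genes with 9 lists, 181 were past an adjusted p of 0.05, with 15 positive and 7 negative for myelin, 10 and 3 for meningeal fibroblasts, 18 and 4 for endothelial and mural cells, 16 and 6 for neurons, 25 and 8 for astrocytes, 13 and 8 for microglia, 12 and 1 for blood, 7 and 15 for choroid plexus and ependyma, and 2 and 11 for pituitary. In the 30 rats that the naming did not use, 128 were past it, of which 124 were among the 181.

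**Figure D4:**
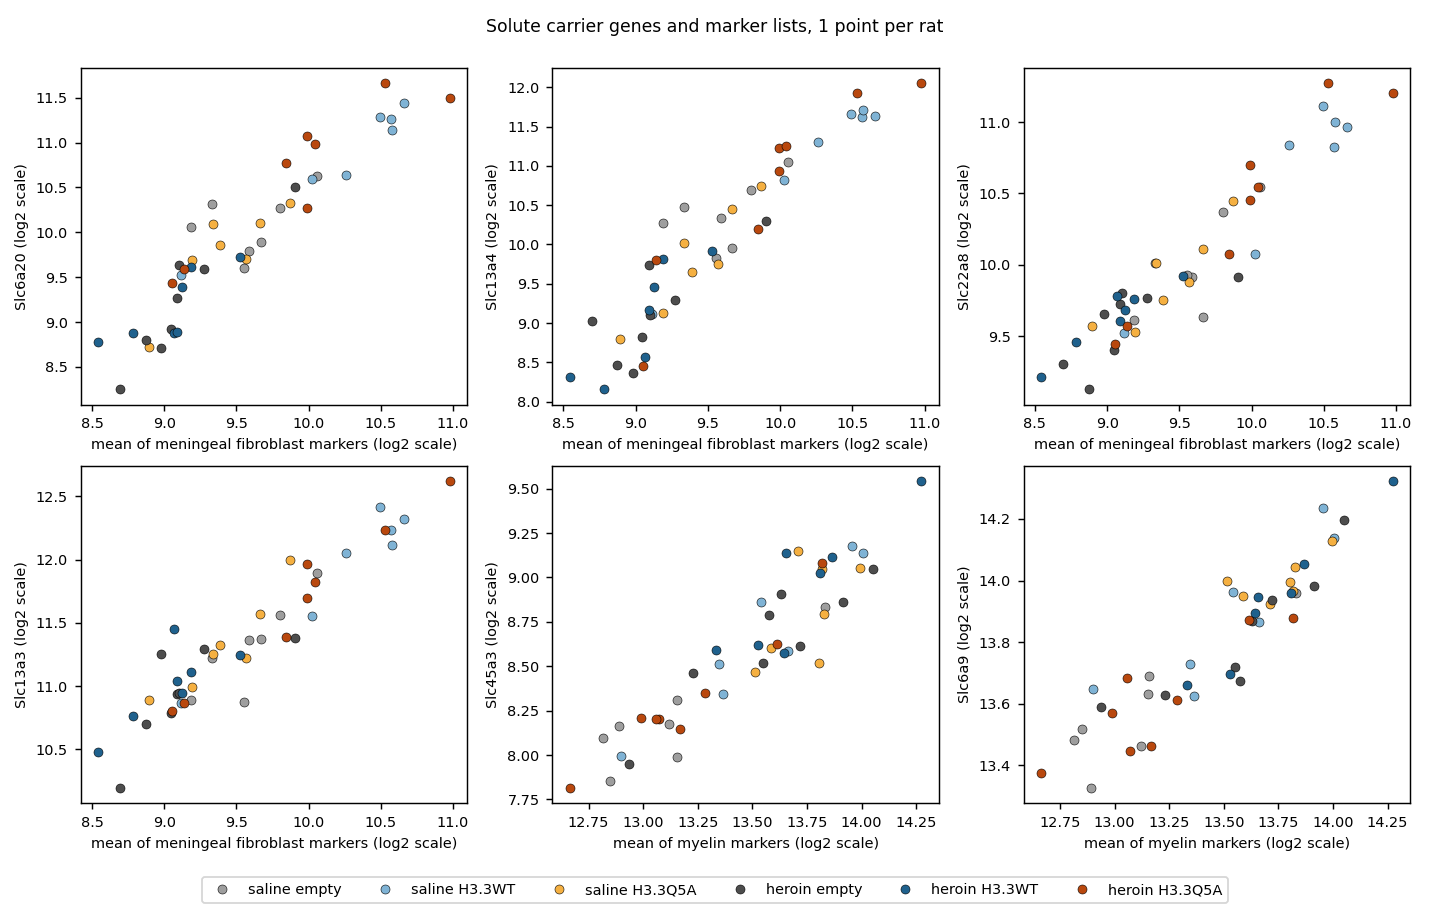
Deposited values (y axis, log2 scale) of Slc6a20, Slc13a4, Slc22a8 and Slc13a3 against the mean of 8 meningeal fibroblast markers, and of Slc45a3 and Slc6a9 against the mean of 17 myelin markers (x axis, log2 scale), with 1 point per rat coloured by group. Points of all 6 groups lie along a rising band in each panel, with r between 0.88 and 0.91 once group means are subtracted.

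The solute carrier genes that were most alike after subtracting group means were Slc48a1 and Slc6a9 (r = 0.953), Slc13a3 and Slc22a8 (r = 0.921) and Slc13a3 and Slc41a1 (r = 0.888), over the 44 rats, which share library and dissection. These rats include those that the naming used. Over all pairs of the 42 genes the median r was 0.104, and the lowest was -0.799.

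**Figure D5:**
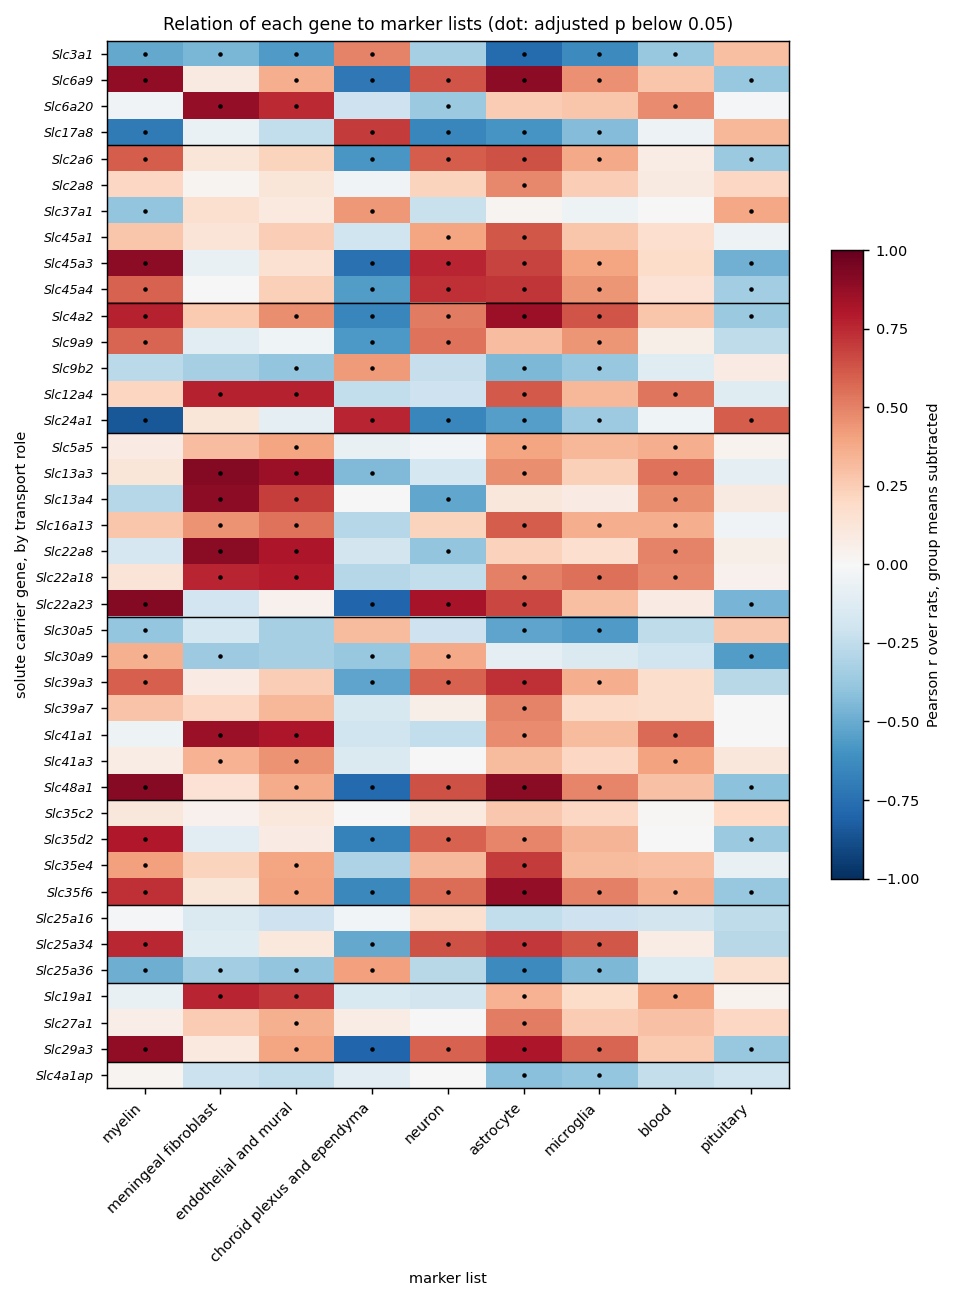
Pearson r over 44 rats, with group means subtracted (colour), between each of 40 of the 42 solute carrier genes (rows, by transport role) and the mean of each of 9 marker lists (columns). Dots mark an adjusted permutation p below 0.05, 173 of the 360 drawn, and the meningeal column is strongest for Slc13a3, Slc22a8, Slc13a4, Slc6a20 and Slc41a1.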

How the data were processed

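The deposited values are one table of 32883 genes on a log2-like scale, made by the authors with the variance-stabilizing transform of DESeq2. Per the submitters' processing notes and the study's methods, reads were aligned with HISAT2 2.1.0 to rn6, multi-aligned reads were removed, and reads were counted per Ensembl gene with featureCounts 2.0.1 before DESeq2 2.11.40.6. The authors' own tests removed unwanted variation estimated from residuals, which is not subtracted in the deposited values. The library kit does not mark strand, and the strand setting of the counting is not given in the sources used here, so overlapping genes cannot be separated. The lowest value, 5.7338, stands for 0 reads. Inverting the transform gave whole reads for all values within 0.02, and these reads served for depth and for voom.

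Groups were taken from the labels, and 1 library with conflicting labels was left out. Genes were named from the 1998 readable rows of the study's table of comparisons, whose fold changes and p-values were not used. The 42 genes, the marker lists and the tests were chosen with earlier results of these data known. limma 3.58.1 (R 4.3.3, intensity trend) was fitted to the 22570 genes that exceeded the lowest value in 7 or more of 44 libraries, over the 30 rats of 4 groups, with Benjamini-Hochberg adjustment over all genes. Called genes had an adjusted p of less than 0.05 and a fold change larger than 0.2 in size on the log2 scale, the thresholds of the study. Each rat is 1 library, and p-values measure the spread between rats. Relations to marker lists were tested over 44 rats by permutation (python 3.11.15). The fit was tested on simulated data. Lowest, median and highest values are given for genes called in any tested comparison and for the 2 genes of each transport role with the lowest adjusted p against heroin empty rats. Alternatives were no gene filter, median centring, quantile normalization, 1 or 3 residual factors, all 6 groups, only the 2 groups compared, array weights, the log2 read total as covariate, voom on recovered reads, no fold threshold and leaving out each rat. Promoters came from RefSeq (GRCr8) by symbol, and gene positions are in rn6. Single-gene results of 2 solute carrier genes and of some markers are not reported here, although these genes stay in all counts. Exon lengths were not used, so levels are not compared between genes.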

Additional observations from a re-analysis of the deposited data

Results flagged for a closer look

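Among the values of 21 named solute carrier genes in 6 groups, 126 groups of values were examined for a rat far from the others, and 13 had one, where about 6.3 are expected by chance at 1 in 20. Saline H3.3WT rat 27 stood below the rest of its group for Slc13a4 at 9.1194 (others 10.818 to 11.707), Slc12a4 at 10.759 (others 11.162 to 11.44) and Slc41a1 at 12.304 (others 12.719 to 12.997). Heroin empty rat 5 stood above its group for Slc12a4 at 11.138 and Slc22a18 at 7.5811. Heroin empty rat 7 was high for Slc35e4 at 11.177 and low for Slc4a1ap at 11.122. Slc24a1 was 7.604 in saline empty rat 18 (others 8.84 to 9.1351), and Slc6a20 was 8.7208 in saline H3.3Q5A rat 33 (others 9.6964 to 10.322). Slc19a1 was 9.6535 in saline empty rat 13 and 8.8283 in heroin empty rat 16, Slc22a18 was 6.7272 in heroin H3.3WT rat 9, and Slc3a1 was 12.387 in heroin H3.3WT rat 20.

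For 2 genes, every heroin rat lay on one side of the saline mean with the empty virus and on the other side with H3.3Q5A. Heroin minus saline was 0.22923 in empty and -0.23509 in H3.3Q5A rats for Slc2a6, and 0.24197 in empty and -0.38869 in H3.3Q5A rats for Slc6a9. Saline empty rats are among those that the naming used, and their values overlapped those of heroin empty rats for both genes. For Slc6a9 the lowest heroin empty rat, at 13.59, was close to the saline empty mean of 13.582. The share of all genes with this pattern was not counted, and the difference between the viruses was not tested.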

How the results depend on the processing

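The count of solute carrier genes called in heroin H3.3Q5A vs. heroin empty rats, 8 in the report, was 5 with no gene filter and 0 when only the 2 groups compared were fitted (957, 526 and 101 of all genes), and 1 to 10 when a rat was left out (210 to 1925 of all genes). With median centring it was 12, with 6 higher and 6 lower in place of 7 and 1, and 2375 of all genes. Against heroin H3.3WT rats, 6 in the report (4 higher and 2 lower), it was 1 with no gene filter, 12 with 1 residual factor (5 higher and 7 lower), 18 with 3 residual factors (7 and 11), 0 with only the 2 groups compared, 11 with array weights (7 and 4) and 1 to 13 when a rat was left out, and with median centring 8 (4 and 4). All-gene counts there were 649 in the report, 209 with no filter, 1294 with median centring, 1610 with 1 residual factor and 2155 with 3 residual factors. They were 0 with only the 2 groups compared, 1209 with array weights and 107 to 1632 when a rat was left out. For heroin H3.3WT vs. heroin empty rats, 0 in the report, it was 1 with 3 residual factors (139 of all genes) and 0 without any single rat. For heroin vs. saline H3.3Q5A rats, 0 in the report, it was 10 with median centring (all lower), 2 with quantile normalization, 11 with 1 residual factor (1 higher and 10 lower), 19 with 3 residual factors (6 and 13), 5 with only the 2 groups compared, 13 with array weights (2 and 11), 1 with voom on recovered reads and 0 to 13 when a rat was left out. All-gene counts there were 57 in the report, 1082 with median centring, 248 with quantile normalization, 1512 with 1 residual factor and 2357 with 3. They were 447 with only the 2 groups compared, 1552 with array weights, 92 with voom on recovered reads and 0 to 1659 when a rat was left out. The cause was not tested. No difference of a solute carrier gene that was called turned its direction. Slc6a20 lost its call only with the 2 groups compared, in both comparisons. The number of relations to marker lists past an adjusted p of 0.05, 181 in the report, was 183 with median centring, 176 with quantile normalization and 128 in the 30 rats that the naming did not use. No paired analysis was possible because each rat is in 1 group only, and a rat number is a label within its group. Genes with few reads, such as Slc22a18, have understated fold changes, and genes that could not be named were not analysed as solute carriers.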

Other observations

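The library whose labels contradict each other on the virus entered no group. Its values were 9.64 for Slc6a20, 9.35 for Slc13a4, 10.89 for Slc13a3, 9.71 for Slc22a8, 7.69 for Slc24a1, 8.76 for Slc45a3 and 13.74 for Slc6a9 on the log2 scale.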
